A study of Mus musculus with 2 samples.

Results

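The Eph receptors, ephrins, Slits, Robos, netrins and netrin receptors were described in the embryonic mouse eye cup at single-cell resolution. Members were chosen by symbol alone, as all Epha, Ephb, Efna, Efnb, Slit, Robo and Unc5 genes together with Ntn1, Ntn4 and Dcc, which gave 36 of the 31053 genes counted. They comprised 9 EphA receptors, 5 EphB receptors, 5 ephrin-A ligands, 3 ephrin-B ligands, 3 Slit ligands, 4 Robo receptors, 2 netrins and 5 netrin receptors. Messenger RNA was tagged at its 3′ end with unique molecular identifiers (UMIs), so that each captured molecule was counted once. The series compared eyes with and without Myrf, a membrane-bound transcription factor of the retinal pigment epithelium (RPE), to learn which cells of the eye change when it is lost.

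Both groups were sampled at e15.5, each as 1 library of 3 pooled eye cups from which cornea, lens and optic nerve had been removed. Controls were Myrf fl/fl, with both Myrf alleles floxed. Mutants were Rx>cre Myrf fl/fl, which carry the same floxed alleles and express Cre from an Rx transgene that is active in the early eye field, and so in the precursors of neural retina and RPE alike. With 1 library per genotype, no difference between genotypes has a replicate check, and no test was made. All intervals given are 95% intervals for counting error only.

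Control and mutant libraries held 11518 and 12576 cells after filtering, with medians of 9339 and 8702 UMIs per deposited barcode, and 59 barcodes were shared between the cells kept in the libraries. Members took 0.0731% of control and 0.0776% of mutant UMIs. Cells were grouped into classes from marker genes, and 29.6% and 27.6% of cells, holding 14.8% and 13.2% of the UMIs, were left unnamed. Each class is called by the cell type whose marker score was highest in it, with the ending -like. A Y-linked UMI was found in 0.0260% of control and 41.7% of mutant cells, so the sex of the pooled embryos and their genotype cannot be told apart in a comparison of whole libraries. Myrf stood at 77.3 CPM (counts per 1000000 UMIs) in control and 29.7 CPM in mutant RPE-like cells and between 0 and 2.35 CPM in every other class. Whether the floxed part of Myrf holds the 3′ end that was counted is not given in the sources used here.

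These genes encode cues and receptors by which growing axons and moving cells read their position. Ephrin-A ligands are tethered to the membrane by a lipid anchor and bind mainly EphA receptors, whereas ephrin-B ligands span the membrane and bind mainly EphB receptors. In the retina, opposing gradients of both pairs mark the nasal to temporal and dorsal to ventral axes and guide ganglion cell axons to their places in the brain. Slits are secreted repellents read by Robo receptors, and netrin-1 attracts axons through Dcc and repels them through Unc5 receptors. Ephrin-B2 and EphB4 also separate arteries from veins.

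Among the 13 named classes with at least 50 cells in each library, the class with the highest level was the same in both libraries for 27 of 34 members with at least 50 UMIs in some class, and the leading classes given here are among these 13. Robo3, a divergent Robo receptor of commissural axons, and Unc5d, a netrin receptor, had too few UMIs in every class to be placed. For 7 members (Efna2, Efnb2, Ntn1, Ntn4, Robo1, Slit1 and Slit3) the leading class changed between libraries. Erythroid-like cells should lack neuronal guidance genes, so their levels show free RNA in that class. In erythroid-like cells no member exceeded 6.62 CPM, at median depths of 16805 and 16735 UMIs per cell. Their own markers summed to 808062 and 792075 CPM, which lowers the CPM of all other genes. The value of 6.62 CPM is thus no ceiling for free RNA in other classes. Retinal progenitor markers summed to 37.3 and 79.8 CPM in erythroid-like cells, but to 858 and 1282 CPM in RPE-like cells.

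**Figure D1:**
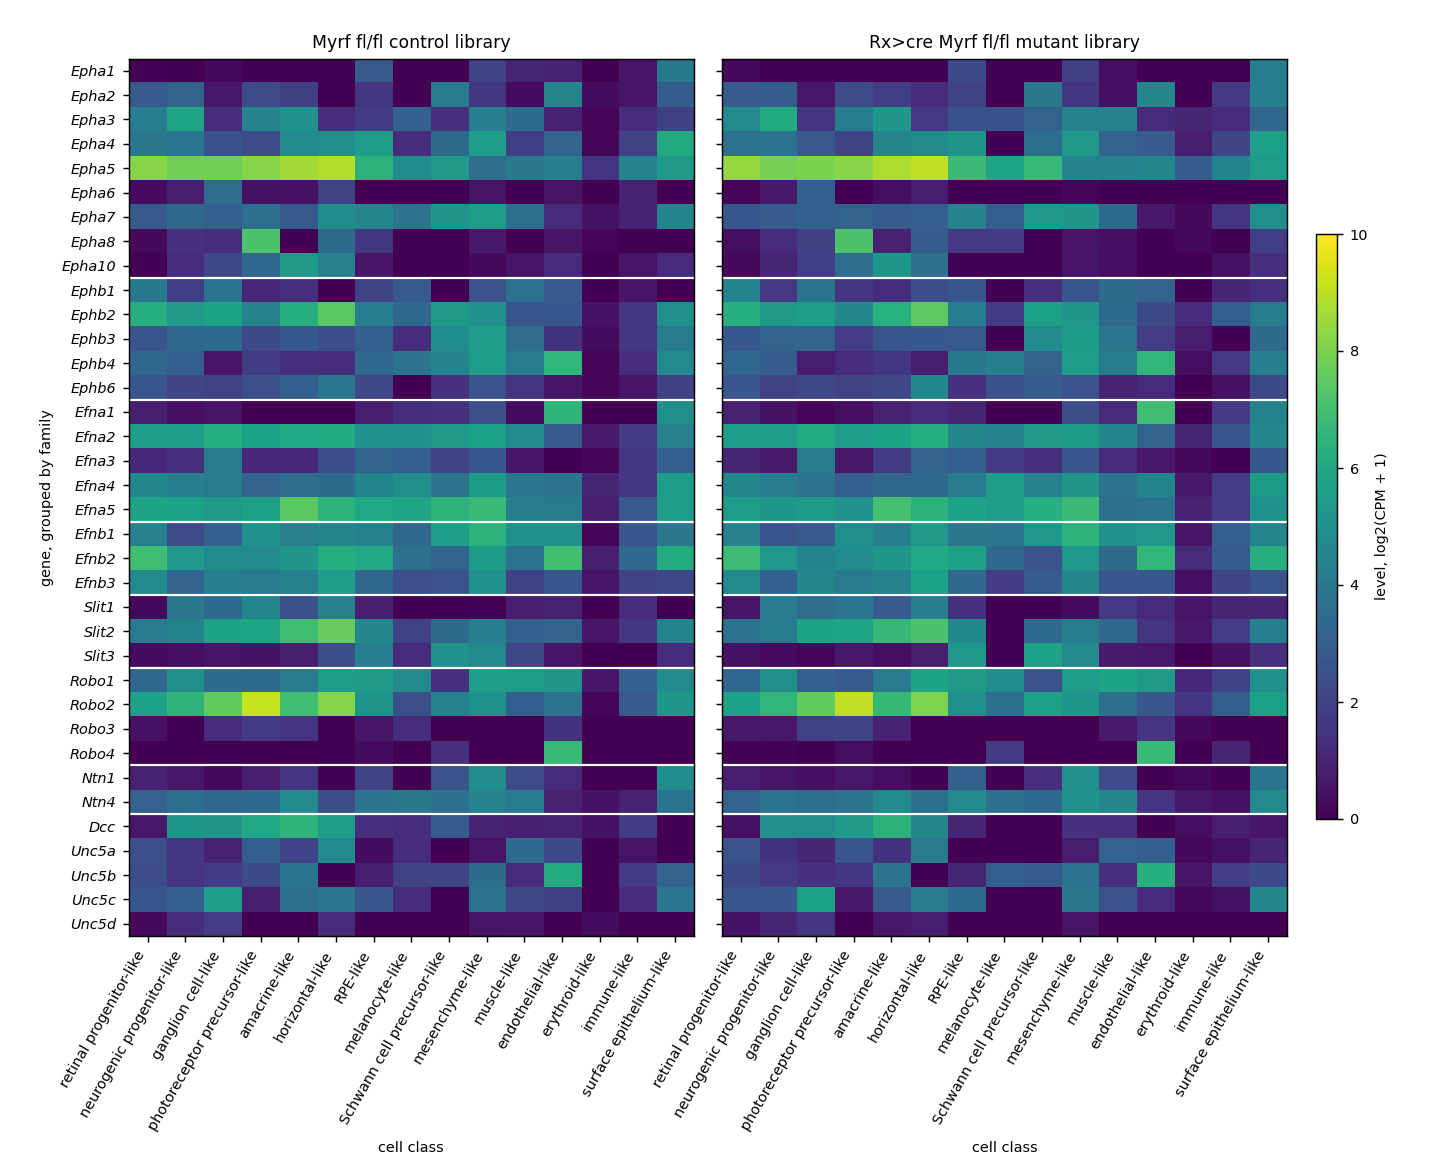
Level of each of the 36 genes, as log2(CPM + 1), in 15 marker-defined classes of the control library (left) and the mutant library (right). Rows are genes grouped by family, with white lines between families. Epha5 and Robo2 were bright across neural retina, Robo4 was bright in endothelial-like cells, and Epha8 in photoreceptor precursor-like cells.

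EphA receptors differed in the retinal cell type that led. Epha5, the most broadly detected of them, stood at 292 CPM (interval 286 to 299) in control and 342 CPM (336 to 348) in mutant retinal progenitor-like cells. It was higher still in amacrine-like cells, at 390 and 430 CPM, and in horizontal-like cells, at 472 and 527 CPM. Epha8 stood at 147 CPM (133 to 163) in control and 145 CPM (133 to 158) in mutant photoreceptor precursor-like cells, and the next class, horizontal-like cells, reached 9.85 and 6.49 CPM. Of photoreceptor precursor-like cells, 54.9% and 55.9% had an Epha8 UMI at medians of 6710 and 6686 UMIs per cell, against 0.208% and 0.236% of erythroid-like cells. Epha10, an Eph receptor thought to lack kinase activity, was highest in amacrine-like cells, at 40.8 and 37.8 CPM, followed by horizontal-like cells at 19.7 and 11.5 CPM. Epha6 was highest in ganglion cell-like cells, at 11.1 and 7.31 CPM, and did not exceed 2.82 CPM in the other named classes. Epha3 was highest in neurogenic progenitor-like cells, the Atoh7-expressing precursors of early neurons, at 56.0 and 65.6 CPM, and stood higher still in an unnamed cluster led by the mural cell gene Rgs5, at 71.5 and 88.5 CPM.

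The remaining EphA receptors were led by classes outside the neural retina. Epha1 was highest in surface epithelium-like cells, at 15.6 and 18.5 CPM, with RPE-like cells next at 6.33 and 3.72 CPM. Epha4, which binds ligands of both ephrin classes, was also highest there, at 66.3 and 49.7 CPM, and stood at 47.5 and 35.6 CPM in RPE-like cells. Epha2 was highest in endothelial-like cells, at 22.3 and 23.2 CPM. Epha7 was highest in mesenchyme-like cells, at 44.5 and 34.7 CPM.

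Among EphB receptors, Ephb2 was highest in horizontal-like cells, at 173 and 183 CPM, and was found throughout the neural retina, with 73.7 and 76.1 CPM in retinal progenitor-like cells. Ephb6, whose kinase domain is inactive, was also highest in horizontal-like cells, at 14.1 and 24.5 CPM. Ephb1, the receptor that turns axons back at the optic chiasm, was highest in retinal progenitor-like cells, at 15.6 CPM (14.1 to 17.2) and 22.1 CPM (20.6 to 23.7), and next in ganglion cell-like cells, at 13.3 and 12.9 CPM. Ephb3 was highest in mesenchyme-like cells, at 47.2 and 43.1 CPM. Ephb4, a marker of veins, was highest in endothelial-like cells, at 95 and 93.5 CPM.

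The ligands were spread over more classes. Efna5 was highest in amacrine-like cells, at 172 and 131 CPM, and second in mesenchyme-like cells, at 110 and 113 CPM. Within mesenchyme-like cells it was uneven, with 227 and 210 CPM in the cluster led by the cornea matrix genes Matn4 and Kera and 39.5 to 57.1 CPM in the other mesenchyme-like clusters. Efna2 stood between 45.4 and 74.7 CPM in all neural retinal classes. Efna3 was highest in ganglion cell-like cells, at 16.9 and 15.8 CPM. Efna1, an endothelial ephrin, was highest in endothelial-like cells, at 91.0 and 122 CPM. Efna4 was highest in surface epithelium-like cells, at 45.4 and 42.3 CPM, close to mesenchyme-like cells at 42.7 and 36.6 CPM. Efnb2 stood at 122 CPM (117 to 126) and 116 CPM (112 to 119) in retinal progenitor-like cells and at 124 and 97.9 CPM in endothelial-like cells. Efnb1, on the X chromosome, was highest in mesenchyme-like cells, at 87.5 and 88.0 CPM. Efnb3 was highest in horizontal-like cells, at 47.9 and 49.1 CPM.

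Of the Slit and Robo genes, Robo2 and Slit2 were led by neurons of the retina. Robo2 stood at 566 CPM (537 to 596) and 526 CPM (503 to 551) in photoreceptor precursor-like cells, then at 282 and 264 CPM in horizontal-like cells and 188 and 190 CPM in ganglion cell-like cells. Slit2 was highest in horizontal-like cells, at 203 CPM (171 to 239) and 144 CPM (125 to 166), and second in amacrine-like cells, at 121 and 100 CPM. Slit1 was low, with 23.4 and 14.4 CPM in photoreceptor precursor-like cells and 19.7 and 18.8 CPM in horizontal-like cells. Slit3 stood at 25 and 26.5 CPM in mesenchyme-like and 18.7 and 38.7 CPM in RPE-like cells. Robo1 stood at 46.0 and 43.5 CPM in mesenchyme-like and 45.1 and 53.6 CPM in muscle-like cells. Robo4, an endothelial Robo receptor, stood at 105 CPM (92.2 to 120) and 109 CPM (93.0 to 126) in endothelial-like cells and at no more than 2.35 CPM in any other class, with no UMI in mesenchyme-like cells of either library.

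The windows before the starts of Robo4 and Epha8 are shown because each gene had a high level in 1 class of both libraries and little elsewhere, while their base composition differed widely. Sequences are from RefSeq for build GRCm38.p6, read 5′ to 3′ on the strand of the gene, with each CpG dinucleotide in capitals. The Robo4 window lies at chr9:37401722-37401896 on the plus strand and the Epha8 window at chr4:136956817-136957066 on the minus strand, both before the first annotated base of the gene.
Robo4: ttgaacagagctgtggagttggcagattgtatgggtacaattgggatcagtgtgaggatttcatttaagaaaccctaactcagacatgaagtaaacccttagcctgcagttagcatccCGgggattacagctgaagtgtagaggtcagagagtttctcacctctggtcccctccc
Epha8: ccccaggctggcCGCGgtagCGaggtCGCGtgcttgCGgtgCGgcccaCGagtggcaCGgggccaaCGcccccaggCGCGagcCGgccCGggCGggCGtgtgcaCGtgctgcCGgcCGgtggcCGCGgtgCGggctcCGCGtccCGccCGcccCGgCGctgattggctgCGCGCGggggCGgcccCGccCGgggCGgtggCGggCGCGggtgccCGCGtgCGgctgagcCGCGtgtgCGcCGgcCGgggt
Over the full 250 bases before the RefSeq start, Robo4 held 2 CpG dinucleotides and Epha8 held 46. Of 32851 such windows in the RefSeq table, 18.8% held fewer than Robo4 and 99.7% held fewer than Epha8, with a median of 6. The 36 windows of the 31 members found in the table had a median of 17.5. The letters CCGGAAG, a core searched for ETS factors on both strands, were in neither window and were in 6.91% of all windows. TAATCC, the OTX and CRX core, and CAGCTG, an E-box, were in the Robo4 window, on neighbouring bases without overlap, and not in that of Epha8. They were in 6.25% and 13% of all windows. These are matches of letters only.

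Netrin-1 was led by cells around the retina, and the netrin receptors by retinal neurons and vessels. Ntn1, the secreted attractant, stood at 27.8 and 13.7 CPM in surface epithelium-like and 27.5 and 29.5 CPM in mesenchyme-like cells, where the cluster led by Mfap5 and Osr2 had 70.9 and 86.0 CPM. An unnamed cluster led by the optic stalk gene Pax2, with 59 control and 58 mutant cells, had 66.0 and 75.4 CPM of Ntn1 and 84.1 and 91.5 CPM of Slit2. Retinal progenitor-like cells had only 0.888 and 0.779 CPM of Ntn1. Ntn4, a netrin of basement membranes, stood at 27.3 and 26.5 CPM in amacrine-like cells and at 20.9 and 33.3 CPM in mesenchyme-like cells. Dcc was highest in amacrine-like cells, at 89.2 CPM (78.1 to 102) and 84.7 CPM (75.3 to 95). Unc5c was highest in ganglion cell-like cells, at 46.9 CPM (41.9 to 52.3) and 48.7 CPM (44.2 to 53.5). Unc5b was highest in endothelial-like cells, at 70.0 and 79.1 CPM, and Unc5a in horizontal-like cells, at 25.3 and 16.6 CPM.

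A small unnamed cluster led by Alx1 and Cdh6, with 16 control and 65 mutant cells, had Epha3 at 288 and 590 CPM, Epha5 at 140 and 572 CPM and Robo1 at 196 and 252 CPM. Epha3 was among the genes that led this cluster, and so its level there is a description. The 5 cells richest in Epha3 held 87.8% of its UMIs in the control, and the cluster was too small in that library for a comparison of genotypes.

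Levels of the ephrin-B ligands Efnb1 and Efnb2 in progenitors differed with position in the retina. Dorsal retinal progenitor-like cells were taken as those with a UMI of Tbx5 and none of Vax1 or Vax2 (86 control and 129 mutant cells), and ventral ones as the reverse (933 and 1354 cells). None of these transcription factors is a member. Past 1.5-fold in the same direction in both libraries were 5 of 22 members with at least 50 UMIs, against 3.41% of all 10216 genes tested by the same rule. Efnb2 stood at 66.5 CPM in ventral and 331 CPM in dorsal cells of the control, a ratio of 4.98 (4.38 to 5.65), and at 59.4 and 333 CPM in the mutant, a ratio of 5.60 (5.02 to 6.23). Efnb1 stood at 10.1 and 43.5 CPM in the control and 10.8 and 43.1 CPM in the mutant, ratios of 4.30 (3.00 to 6.08) and 4.00 (2.97 to 5.32). The intervals of dorsal and ventral cells were apart for both ligands in both libraries. Efnb3 stood at ratios of 1.5 (1.05 to 2.11) and 1.31 (0.951 to 1.76) and was not called.

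Receptors differed less across this axis. Epha3 was 1.61 (0.976 to 2.52) and 1.56 (1.11 to 2.14) times as high in dorsal cells, and its control interval included 1. Epha2 and Ephb3 were lower dorsally by the ratio in both libraries (0.655 and 0.645 for Epha2, 0.561 and 0.529 for Ephb3), but each rested on 4 to 7 dorsal UMIs and the intervals included 1. Among cells that had Xist but lacked Y-linked UMIs, the Epha2 ratio in the mutant turned to 1.39. Calls were 3 of 13 members in those cells, against 2.71% of genes, and 3 of 22 with mitochondrial shares up to 5%, against 3.37%. Ephb2, the receptor with most UMIs among the EphB group here, was lower dorsally, at ratios of 0.707 (0.540 to 0.911) and 0.662 (0.530 to 0.818), and passed 1.5-fold only in the mutant. The 33 genes tested from a list of 40 other genes of these pathways gave 1 call. Of the position genes not used for the split, Tbx3 and Aldh1a1 were higher dorsally in both libraries (ratios of 5.65 and 6.06, and of 19.7 and 15.4), and Aldh1a3 was lower, at ratios of 0.0523 and 0.0848.

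The windows before Efnb2 and Epha5 are shown because Efnb2 was the dorsal member with the most UMIs in retinal progenitor-like cells and Epha5 had the most UMIs there of all members. The Efnb2 window lies at chr8:8661243-8661492 and the Epha5 window at chr5:84417383-84417632, both on the minus strand of GRCm38.p6, with CpG dinucleotides in capitals.
Efnb2: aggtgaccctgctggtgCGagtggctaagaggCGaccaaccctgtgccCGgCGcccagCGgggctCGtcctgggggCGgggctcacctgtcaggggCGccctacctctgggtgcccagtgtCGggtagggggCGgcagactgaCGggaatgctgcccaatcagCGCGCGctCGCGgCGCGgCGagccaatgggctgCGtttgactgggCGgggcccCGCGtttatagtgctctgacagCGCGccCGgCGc
Epha5: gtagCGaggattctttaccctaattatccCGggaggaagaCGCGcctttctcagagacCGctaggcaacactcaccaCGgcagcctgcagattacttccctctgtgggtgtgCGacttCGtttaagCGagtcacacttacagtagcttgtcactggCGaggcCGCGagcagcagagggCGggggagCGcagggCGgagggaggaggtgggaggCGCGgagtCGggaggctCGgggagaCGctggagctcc
Efnb2 held 27 CpG dinucleotides, more than 91.4% of all windows, and Epha5 held 20, more than 82.1%. The letters AGGTGT, a T-box core found in 11.8% of all windows, did not occur in either on either strand. The Epha5 window held TAATTA, a homeodomain core found in 4.84% of all windows, 230 bases before its start.

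**Figure D2:**
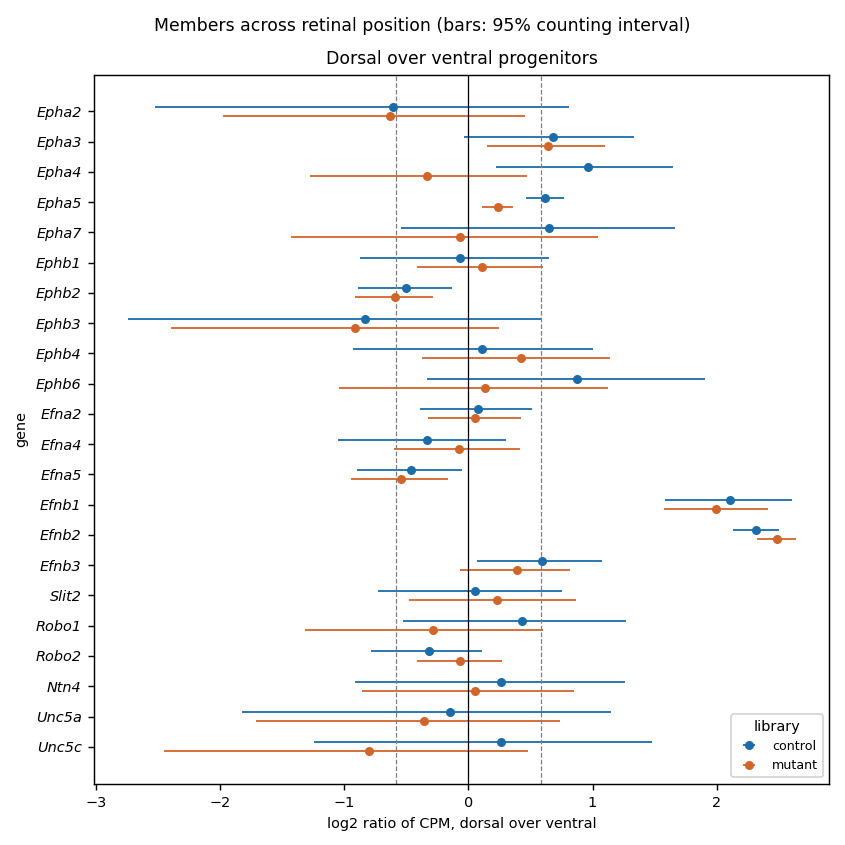
Log2 ratio of CPM between dorsal and ventral retinal progenitor-like cells for each member with at least 50 UMIs in both libraries. Points are libraries, bars are 95% counting intervals and dashed lines mark 1.5-fold. Efnb1 and Efnb2 lay far to the dorsal side (ratios of 4.00 to 5.60).

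The same split within ganglion cell-like cells, tried after the progenitor values were seen, gave larger ratios for Efnb2. Efnb2 was 11.1 (7.25 to 17.1) and 7.68 (4.77 to 12.1) times as high in dorsal cells, on 21 and 17 cells, with 4.53% of 7683 genes past 1.5-fold in both libraries and 2 of 13 members. Unc5c was the other, lower dorsally at 0.260 (0.0944 to 0.572) and 0.144 (0.0296 to 0.425).

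In ganglion cell-like against neurogenic progenitor-like cells, 14 of 25 members passed 1.5-fold the same way in both libraries, against 45.9% of 10809 genes tested. Of these, 8 were higher, against 22.3% of genes, and 6 lower, against 23.6%. As the classes were clusters, this is a description, and the share of members was near that of all genes. Unc5c stood at 7.30 and 46.9 CPM in neurogenic progenitor-like and ganglion cell-like cells of the control and at 5.55 and 48.7 CPM in the mutant, ratios of 6.43 (4.93 to 8.49) and 8.78 (6.80 to 11.5). Efna3 was 10.3 (6.02 to 19.1) and 24.5 (12.1 to 57.9) times as high in ganglion cell-like cells, and Epha6 was 14.5 (6.71 to 37.3) and 13 (5.96 to 33.6) times as high. Ephb1 was 5.07 and 5.96 times as high, Robo2 2.12 and 2.03, Slit2 2.51 and 2.97, Efnb3 2.16 and 3.04, and Efna2 1.60 and 1.52 times as high. Among the members that were lower, Epha3 stood at 56.0 CPM in neurogenic progenitor-like and 1.46 CPM in ganglion cell-like cells of the control and at 65.6 and 1.80 CPM in the mutant. Robo1 stood at ratios of 0.331 and 0.247, Epha4 at 0.339 and 0.481, and Efnb2 at 0.665 and 0.542. Epha2 stood at ratios of 0.0713 and 0.0833 and Ephb4 at 0.0637 and 0.105. Epha5 had ratios of 1.00 (0.940 to 1.07) and 1.03 (0.978 to 1.09), and Dcc had ratios of 0.984 (0.833 to 1.16) and 1.01 (0.855 to 1.18). Of the pathway list, 19 of 37 genes passed, 15 of them higher.

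Ganglion cell-like cells fell into a cluster led by Cntn2, with 260 control and 335 mutant cells, and one led by Sncg and Nrn1, with 162 and 193 cells. Between these clusters 6 of 20 members passed 1.5-fold the same way in both libraries, against 15.6% of 8751 genes, and as clusters were compared this is a description. Ephb1 was 11.6 (5.99 to 25.1) and 6.39 (3.98 to 10.7) times as high in the Sncg cluster, at 28.7 and 26.3 CPM. Epha6 was 2.32 and 2.27 times as high there, Slit1 2.07 and 1.79 times, and Efnb1 5.07 and 2.34 times. Dcc ran the other way, from 58.6 to 4.96 CPM in the control and from 42.6 to 9.90 CPM in the mutant, ratios of 0.0845 (0.0455 to 0.145) and 0.232 (0.158 to 0.332). Slit2 was lower in the Sncg cluster at 0.572 and 0.601. The Dcc ratio near 1 in the whole class thus joined a cluster with a high level to one with a low level.

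**Figure D3:**
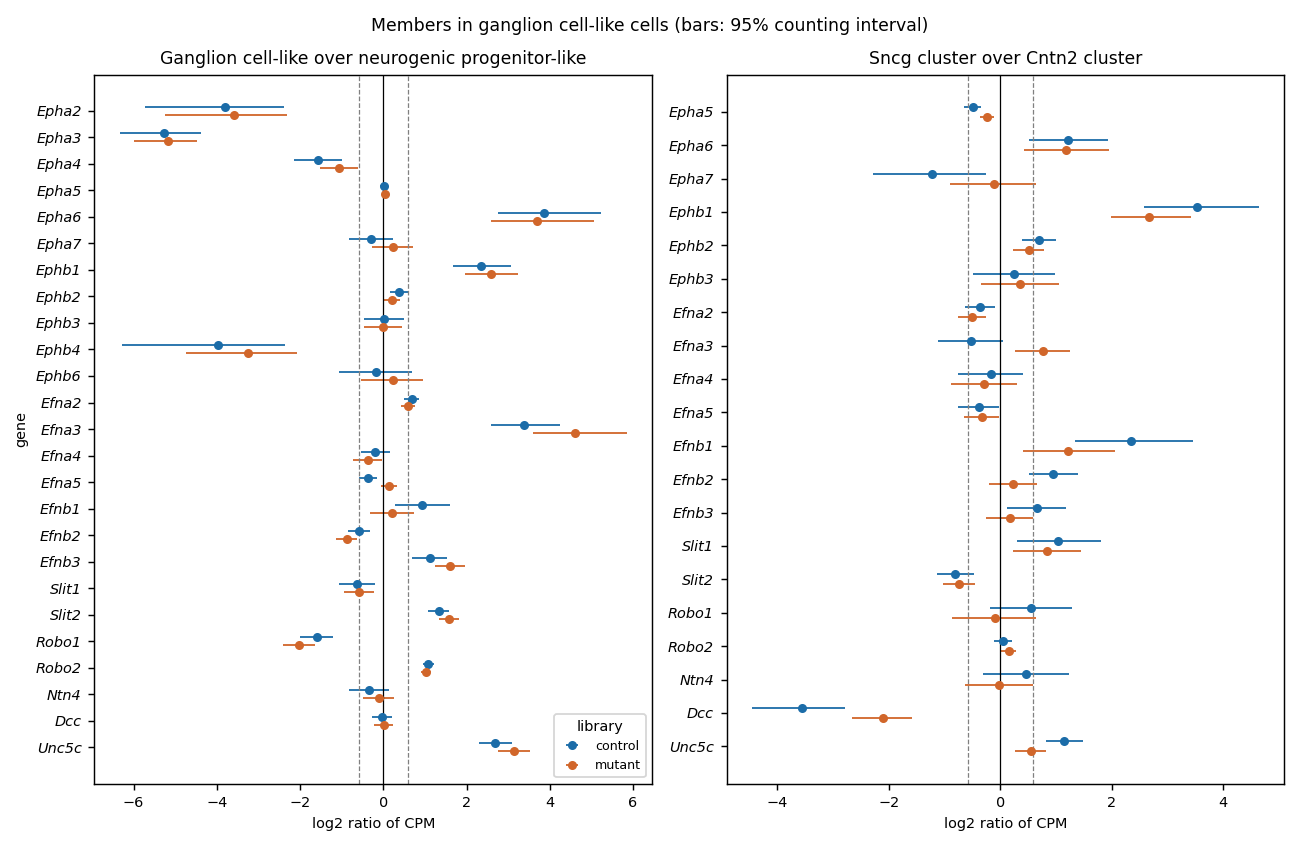
Log2 ratio of CPM in ganglion cell-like over neurogenic progenitor-like cells (left) and in the ganglion cell-like cluster led by Sncg over that led by Cntn2 (right), by library, with 95% counting intervals and dashed lines at 1.5-fold. Ephb1 lay to the right (ratios of 11.6 and 6.39) and Dcc to the left (0.0845 and 0.232) for the Sncg cluster in both libraries.

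Zic2 marks ganglion cells whose axons stay on the same side of the brain, and Isl2 marks cells whose axons cross. A Zic2 UMI was found in 145 of 422 control and 180 of 528 mutant ganglion cell-like cells. The sets below are named by these UMIs, and whether they are uncrossed and crossed cells was not tested. Cells with Zic2 and without Isl2 numbered 125 control and 144 mutant cells, and those with Isl2 and without Zic2 numbered 53 and 91. Past 1.5-fold in both libraries were 3 of 11 members, against 9.65% of 6530 genes, and all of them were higher in Zic2 cells, against 3.97% of genes higher. Dcc stood at 6.0 and 55.6 CPM in Isl2 and Zic2 cells of the control, a ratio of 9.28 (4.13 to 25.8), and at 10.9 and 53.5 CPM in the mutant, a ratio of 4.92 (2.99 to 8.57). Efnb2 was 1.78 (0.970 to 3.48) and 2.16 (1.30 to 3.72) times as high, and Efna5 1.54 and 1.53 times. Most Zic2 cells lay in the Cntn2 cluster (109 of 125 and 129 of 144), where Dcc was high in general. Within that cluster the Dcc ratio was 5.57 (1.86 to 27.4) and 3.86 (1.72 to 10.7). Within the Sncg cluster, Dcc stood at 4.04 and 3.29 CPM in Isl2 and Zic2 cells of the control, on 3 and 1 UMIs, and its ratio in the mutant was 1.82 (0.504 to 5.56).

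Ephb1 gave no single answer. Over all ganglion cell-like cells, its ratio in Zic2 over Isl2 cells was 0.676 (0.313 to 1.5) in the control, on 18 and 13 UMIs, and 1.96 (1.02 to 4.01) in the mutant. The mutant ratio turned to 0.707 among cells that had Xist but lacked Y-linked UMIs and to 0.908 against all cells without Zic2. Within the Sncg cluster, where most Ephb1 UMIs lay, it was 2.07 (0.839 to 5.00) in the control and 8.42 (4.15 to 17.9) in the mutant, on 16 and 15 Zic2 cells. In the Cntn2 cluster, the Isl2 and Zic2 cells together held 7 control and 12 mutant UMIs of Ephb1, all in Zic2 cells, which outnumbered Isl2 cells there by 109 to 15 and 129 to 23.

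In endothelial-like cells, arterial cells were taken as those with a UMI of Gja4, Gja5, Sox17 or Hey1 and none of Aplnr or Nr2f2, and venous cells as the reverse. Only 11 cells of each library were arterial, against 54 and 42 venous cells. Past 1.5-fold in both libraries were 3 of 5 members, against 13.5% of 2035 genes. A gene with under 50 venous UMIs could be tested only if its level was high in the arterial cells. This was so for Unc5b, with 29 and 24 venous UMIs, and for Efnb2 in the mutant, with 33. The count of members is therefore a description. Efnb2 stood at 101 CPM in venous and 479 CPM in arterial cells of the control, a ratio of 4.72 (3.16 to 6.99), and at 57.5 and 383 CPM in the mutant, a ratio of 6.67 (4.04 to 11). Unc5b, a receptor of vessel sprouts, was 8.73 (5.20 to 14.8) and 8.15 (4.65 to 14.5) times as high in arterial cells. Efna1 was 1.64 (0.847 to 2.97) and 2.01 (1.2 to 3.26) times as high. Ephb4 stood at ratios of 1.04 (0.453 to 2.10) and 0.353 (0.0704 to 1.09), on 9 and 3 arterial UMIs, and Robo4 at 1.32 (0.672 to 2.42) and 1.02 (0.416 to 2.17). Ephb4 was thus past 1.5-fold in the mutant alone, with an interval that included 1. The 8 endothelial markers summed to between 4351 and 4934 CPM in each set. Markers of other cells differed between the sets: the 7 retinal progenitor markers summed to 945 CPM in venous and 3605 CPM in arterial cells of the control (1101 and 1054 CPM in the mutant), and the 9 mesenchyme markers to 107 and 160 CPM in the control and 169 and 2204 CPM in the mutant. Erythroid markers summed to 263 and 798 CPM in the control and 265 and 192 CPM in the mutant, and ganglion cell markers to 578 and 117 CPM and to 108 and 192 CPM. Efnb2 also stood at 122 CPM in control retinal progenitor-like cells, and the part of these cells in the arterial ratios was not tested. Among cells that had Xist but lacked Y-linked UMIs, the mutant ratios were 1.60 for Efnb2, 1.99 for Unc5b and 1.32 for Ephb4, and with mitochondrial shares up to 5% the control ratio of Efna1 turned to 0.585.

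**Figure D4:**
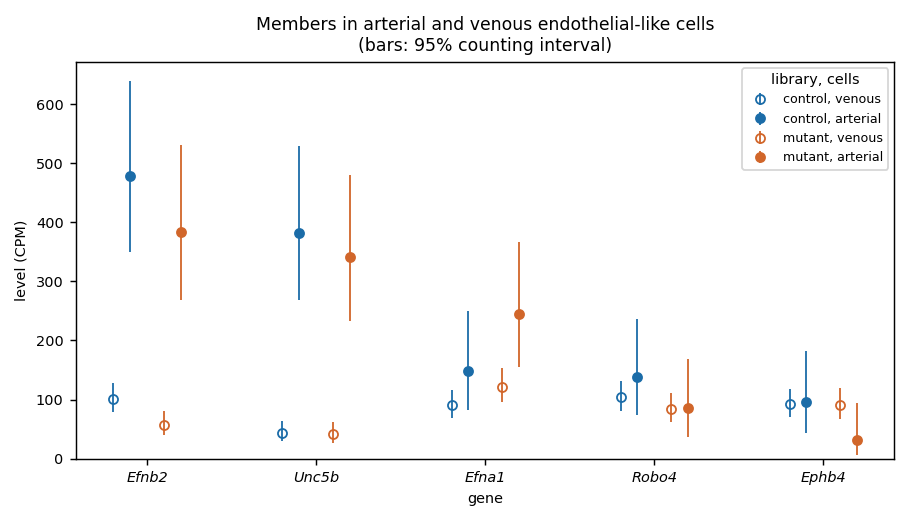
Level in CPM of the 5 members tested in arterial (filled) and venous (open) endothelial-like cells of each library, with 95% counting intervals. Efnb2 and Unc5b stood at 341 CPM or more in arterial and at or below 101 CPM in venous cells of both libraries, whereas Robo4 and Ephb4 intervals overlapped.

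Between genotypes, no member passed 1.5-fold in retinal progenitor-like or neurogenic progenitor-like cells. Counting a gene in a class as past the threshold when it had at least 50 UMIs over both libraries and a ratio of mutant over control past 1.5-fold, 22 of 208 member and class pairs passed, against 6.43% of 111978 gene and class pairs. With mitochondrial shares up to 5%, 8 of 137 member pairs passed, 4 of them among the 22, against 6.45% of all pairs. In retinal progenitor-like cells 0 of 26 members passed, against 2.88% of 12580 genes, and in neurogenic progenitor-like cells 0 of 23, against 3.28% of 10956 genes. No replicated test underlies these counts. Ratios in retinal progenitor-like cells ran from 0.786 for Slit2 to 1.44 for Epha3, and their median on the log2 scale was 0.01, against -0.02 over all genes tested. Epha3 and Ephb1 (1.42) stood highest, followed by Epha5 at 1.17 (1.14 to 1.21). Efnb2 was at 0.951, Efna5 at 0.826, Epha4 at 0.826 and Efnb1 at 0.990. Efna2, Efna4, Efnb3, Ephb2, Ephb4, Robo1 and Robo2 stood between 0.973 and 1.04. In neurogenic progenitor-like cells Efna5 was at 0.746, Dcc at 0.792, Epha3 at 1.17 and Epha5 at 1.09, and Efna2, Efnb2, Ephb2, Robo1 and Robo2 stood between 0.974 and 1.05.

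Few members were called in retinal neurons, and all but Efnb1 in horizontal-like cells were lower in the mutant. Over all members tested, the median log2 ratio was -0.03 in ganglion cell-like, -0.05 in photoreceptor precursor-like, -0.07 in amacrine-like and 0.01 in horizontal-like cells. Over all genes tested in these classes it was -0.02, -0.06, -0.05 and 0.02, so members as a group lay near all genes. In ganglion cell-like cells 1 of 22 members passed, against 3.43% of genes, and this was Epha6, lower at 0.661 (0.467 to 0.932). Unc5c there was at 1.04, Robo2 at 1.01, Slit2 at 0.977, Epha5 at 1.12, Efna5 at 1.06, Efna2 at 0.925, Ephb2 at 0.878 and Dcc at 0.810. In photoreceptor precursor-like cells 3 of 16 passed, against 5.17%, all of them lower in the mutant, against 3.1% of genes lower. Slit1 stood at 23.4 CPM in control and 14.4 CPM in mutant cells, a ratio of 0.615 (0.414 to 0.912). Efna5 stood at 0.644 (0.496 to 0.836) and Dcc at 0.659 (0.521 to 0.832), whereas Epha8 was at 0.987, Epha5 at 1.02 and Robo2 at 0.930. In amacrine-like cells 1 of 18 passed, against 4.71%, with Unc5c at 0.548 (0.297 to 0.995), while Efna5 was at 0.762, Slit2 at 0.832, Robo2 at 0.851, Dcc at 0.949 and Epha5 at 1.10. In horizontal-like cells 2 of 12 passed, against 8.63%, with Dcc at 0.529 (0.313 to 0.896) and Efnb1 at 1.83 (1.03 to 3.41), while Epha5 was at 1.12 and Robo2 at 0.938. In this class the erythroid markers, of which 4 of 7 in the control and 5 of 7 in the mutant were detected, summed to 5608 and 385 CPM, and the 7 retinal progenitor markers summed to 242 and 388 CPM. Retinal progenitor markers also summed to 587 and 821 CPM in photoreceptor precursor-like cells and 147 and 246 CPM in ganglion cell-like cells, and mesenchyme markers to 87.7 and 177 CPM in amacrine-like cells. Erythroid markers summed to 9269 and 15734 CPM in photoreceptor precursor-like cells and to 1143 and 6496 CPM in amacrine-like cells. Their part in these differences was not tested.

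RPE-like cells, the class in which Myrf is expressed, numbered 374 in the control and 207 in the mutant, with medians of 6699 and 3552 UMIs. Of 16 members tested 4 passed, against 8.52% of 8852 genes. Slit3, a secreted repellent, stood at 18.7 CPM (14.6 to 23.6) in control and 38.7 CPM (30.4 to 48.7) in mutant cells, a ratio of 2.07 (1.47 to 2.91). Ntn4 stood at 13.4 CPM (10.0 to 17.7) and 26.5 CPM (19.7 to 35.0), a ratio of 1.97 (1.31 to 2.97). Ephb4 was at 1.67 (0.984 to 2.81) on 35 and 29 UMIs, an interval that included 1, and Efna2 was lower at 0.650 (0.448 to 0.927). Epha5, the member with most UMIs in this class, was at 1.31 (1.09 to 1.56), Efnb2 at 0.781 and Efna5 at 0.850. Robo1, Slit2 and Ephb2 had ratios of 1.01, 1.02 and 0.992. Without cells over 20000 UMIs the Slit3 ratio was 1.10, and among cells that had Xist but lacked Y-linked UMIs the Ntn4 ratio was 1.12. Marker levels of other cells in the RPE-like class also differed: all 7 retinal progenitor markers were detected in both libraries and summed to 858 CPM in control and 1282 CPM in mutant cells, 6 of 7 erythroid markers summed to 5367 and 13216 CPM, and the 9 mesenchyme markers summed to 554 and 499 CPM. Their part in these differences was not tested.

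Outside the retina, 3 of 28 members passed in mesenchyme-like cells, against 5.3% of 13101 genes. Epha5 stood at 11 and 20.8 CPM, a ratio of 1.89 (1.65 to 2.18), and was higher by ratio in each of the 4 clusters of the class, from 1.22 to 3.17. Dcc was at 1.84 (1.10 to 3.09), on levels of 0.902 and 1.66 CPM. The 7 retinal progenitor markers summed to 412 CPM in control and 570 CPM in mutant mesenchyme-like cells, and among cells that had Xist but lacked Y-linked UMIs the ratios were 0.839 for Epha5 and 0.711 for Dcc. Ntn4 was at 1.60 (1.44 to 1.77), with 608 of 671 control and 719 of 765 mutant UMIs in the Matn4 and Kera cluster, where it stood at 55.5 and 78.2 CPM, a ratio of 1.41 (1.26 to 1.57) that did not pass 1.5-fold. In the other 3 clusters of the class its ratio ran from 0.596 to 1.51, on 6 to 24 UMIs a library. The other 25 members of this class stood between 0.771 for Efnb3 and 1.21 for Unc5b and Unc5c. Of these, Epha7 was at 0.780, Efna2 at 0.837, Efna4 at 0.857, Epha4 at 0.886, Ephb3 at 0.913 and Efnb2 at 0.914. Slit2, Robo1, Ephb4, Efnb1, Efna5, Slit3, Robo2 and Ntn1 stood between 0.940 and 1.07, Ephb2 was at 1.14 and Epha3 at 1.16.

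In muscle-like cells 2 of 16 passed, against 7.41%, with Epha3 at 2.03 and Robo2 at 1.76, the latter at 0.870 once the 5 cells with most of its UMIs were left out of each library. Epha3 in muscle-like cells was at 0.915 without cells over 20000 UMIs. The 9 mesenchyme markers summed to 850 CPM in control and 1412 CPM in mutant muscle-like cells, and the 8 ganglion cell markers to 30.04 and 114 CPM. The erythroid markers summed to 938 and 4406 CPM there, and the part of these markers in the ratios was not tested. In endothelial-like cells 1 of 11 passed, against 7.03%, with Efna4 at 1.64 (0.979 to 2.77). Erythroid markers summed to 286 and 14962 CPM in control and mutant cells of this class (5 and 7 of 7 detected), and the ganglion cell markers to 240.3 and 91.6 CPM (8 and 7 of 8 detected). In surface epithelium-like cells 4 of 18 passed, against 10.6%. There, Ntn1 was lower at 0.495 (0.291 to 0.829) and Ephb2 at 0.572 (0.354 to 0.917), and Ntn4 was higher at 1.99 (1.17 to 3.52) and Unc5c at 1.64 (0.952 to 2.90). With mitochondrial shares up to 5% the Ntn4 ratio was 0.942 and that of Ephb2 0.952, and with the mean CPM per cell Ephb2 turned to 1.61. The 9 mesenchyme markers summed to 246 and 143 CPM in this class and the 7 retinal progenitor markers to 725 and 975 CPM. The ganglion cell markers summed to 29.8 and 80.8 CPM, the photoreceptor precursor markers to 16.2 and 79.3 CPM and the erythroid markers to 9979 and 6590.4 CPM. The part of these markers in the ratios was not tested. The single member tested in immune-like cells, Epha5, was not called, against 8.26% of genes. In erythroid-like cells the single member tested, Epha5, stood at 1.83 and 6.62 CPM, in a class where 43.9% of 1682 genes passed and the retinal progenitor markers summed to 37.3 and 79.8 CPM.

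Of the clusters without a name, counts between genotypes are given only for those led by Rgs5 and by Pax2. In the cluster led by Rgs5, 2 of 24 members passed, against 5.12%, with Epha5 at 1.84 and Slit2 at 1.86, and in the cluster led by Pax2, 2 of 7, against 10.5%, with Efna5 at 1.92 and Epha5 at 1.58. Epha5 was past the threshold in mesenchyme-like and erythroid-like cells and in these clusters, at levels below that of retinal progenitor-like cells. In the Alx1 and Cdh6 cluster, too small for a comparison, Epha5 stood at 140 CPM in control and 572 CPM in mutant cells. That mutant level was above the one in mutant retinal progenitor-like cells, and the cause of these differences was not tested. Of 336 pairs of other pathway genes and classes, 15 passed, against the 6.43% of all genes. In neurogenic progenitor-like cells 3 of 34 passed, against 3.28%. These were Ntng1, a netrin-like membrane protein, at 1.65 (0.909 to 3.12), Draxin, a netrin antagonist, at 0.629 (0.50 to 0.790), and Vav3, at 0.644 (0.440 to 0.940).

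**Figure D5:**
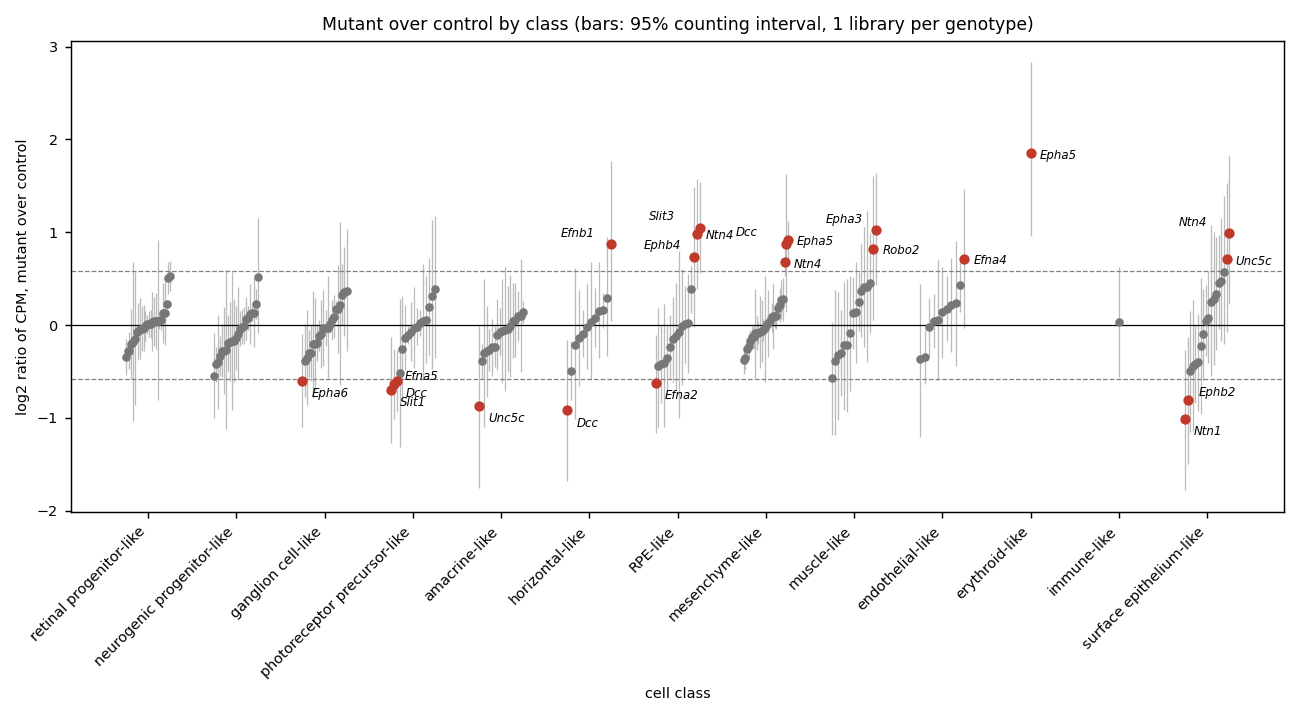
Log2 ratio of CPM, mutant over control, for each member with at least 50 UMIs in a class. Grey points lay within 1.5-fold (dashed lines), red points with names lay past it, and bars are 95% counting intervals. No red point lay in retinal or neurogenic progenitor-like cells.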

How the data were processed

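Each sample was 1 single-cell library of 3 pooled eye cups, aligned to mm10. The deposited values were raw UMI counts per gene and barcode, filtered for cells by the authors' software; Cell Ranger 7.1.0 and Seurat 4.1.1 are named in the submitters' processing notes, whereas the matrix header names software version 3.1.0. From these counts, barcodes with at least 200 genes and at most 15% mitochondrial UMIs were kept, and doublets called by Scrublet (expected rate 0.8% per 1000 barcodes) were removed, 424 in the control (3.55%) and 442 in the mutant (3.40%). Total UMIs were 132436812 and 135678970 over 13017 and 13880 barcodes.

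Cells were clustered with scanpy 1.11.5 on 1890 variable genes without members or markers (30 principal components, 15 neighbours, Leiden resolution 1.0). Clusters were named by marker score (at least 1.25, with a gap of 0.4), by limits set after the data were seen, so class shares may differ from those of the study. Counts were summed per class and library and divided by the class total to give CPM. Exact Poisson intervals were used for levels, exact Clopper-Pearson intervals for shares of cells and exact conditional binomial intervals for ratios, all for counting error only, and a count of 0 was set to 3 counts before a ratio was taken. A gene was tested with at least 50 UMIs over both sets and called past 1.5-fold, within libraries only when both libraries went the same way. The calculation was tried on simulated Poisson counts at the rates of retinal progenitor-like cells, the model that the intervals assume. Variation between cells, free RNA and small classes were not simulated. No test between genotypes was possible with 1 library each. A further split of progenitors by position is not reported here.

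All members were accounted for. Those called were named with their ratios, as were uncalled members with at least 500 UMIs in a class, and other genes came from the pathway and marker lists. The members and lists were chosen with earlier results of these data known. Upstream windows (250 bases) came from RefSeq (GRCm38.p6), without Dcc, Efnb3, Ntn1, Slit1 and Unc5d.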

Additional observations from a re-analysis of the deposited data

Results flagged for a closer look

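Dcc, the netrin receptor, had ratios on opposite sides of 1 between genotypes in different classes. Its ratio of mutant over control was 1.84 in mesenchyme-like cells, on levels of 0.902 and 1.66 CPM, against 0.659 in photoreceptor precursor-like and 0.529 in horizontal-like cells, where levels were 62.1 and 40.9 CPM and 43.6 and 23.1 CPM in control and mutant cells. Among cells that had Xist but lacked Y-linked UMIs, the ratio in mesenchyme-like cells was 0.711, on the same side as in the other two classes. The 7 retinal progenitor markers summed to 412 and 570 CPM in control and mutant mesenchyme-like cells. With 1 library per genotype, the difference between classes was not tested.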

How the results depend on the processing

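No paired analysis was possible because each genotype had 1 library, and no replicate could be left out. Of the recomputed summary values, 73 stayed within the limits set, 13 moved and 3 changed direction, and of the values for single genes 548 stayed, 46 moved and 10 changed direction. The 22 of 208 member and class pairs past 1.5-fold between genotypes became 8 of 137 with mitochondrial shares up to 5% (4 shared with the 22, against 6.45% of all gene and class pairs past 1.5-fold under that setting), 14 of 173 without cells over 20000 UMIs (9 shared, 6.23%), 16 of 143 in cells that had Xist but lacked Y-linked UMIs (9 shared, 7.06%), 21 of 179 without the 5 richest cells (11 shared, 6.94%), 20 of 190 with doublets kept (13 shared, 6.12%), 41 of 208 with the mean CPM per cell (18 shared, 12.4%) and 48 of 271 with a minimum of 20 UMIs (22 shared, 11.9%). With the erythroid level subtracted 22 member pairs passed (21 shared, 7.27%). With totals lacking mitochondrial, ribosomal protein and haemoglobin genes 22 passed (21 shared, 6.18%). Clustering gave 21 at resolution 0.6 (19 shared, 6.47%) and 20 at resolution 1.5 (20 shared, 6.39%). The 15 pathway pairs became 33 with the mean CPM and 35 with 20 UMIs. Dorsal over ventral calls became 3 of 22 at 5% mitochondrial share, 3 of 13 in these Xist cells, and 2 of 13 within ganglion cell-like cells, a split chosen after seeing the data. In the Xist cells, ganglion cell calls became 9 of 16 (42.8% of genes), arterial Efnb2 in the mutant 1.60 and arterial Ephb4 1.32. Ephb1 in mutant Zic2 cells became 0.707 in the Xist cells and 0.908 against all cells without Zic2, and within the Sncg cluster, also chosen after seeing the data, 8.42 (2.07 in the control). Single genes that changed direction were Epha2 (1.39, dorsal, mutant), Dcc (0.711) and Epha5 (0.839) of mesenchyme-like cells in the Xist cells, Efna1 (0.585, arterial, control) and Ntn4 of surface epithelium-like cells (0.942) at 5% mitochondrial share, Epha3 of muscle-like cells (0.915) without cells over 20000 UMIs, Ephb2 of surface epithelium-like cells (1.61) with the mean CPM, Robo2 of muscle-like cells (0.870) without the 5 richest cells, and, dorsally in mutant ganglion cell-like cells, Ephb3 (1.11) and Ephb2 (1.2). The cause was not tested. Amacrine-like and horizontal-like classes could not be formed at resolution 0.6 or with doublets kept. Depth limits members under 50 UMIs in a class, for which no ratio between genotypes was read.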
